A study of Mus musculus with 6 samples.

Results

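The positive limb of the circadian clock was followed in skeletal muscle as 5 genes chosen by name, Arntl, Arntl2, Clock, Npas2 and Rora, out of 55401 gene identifiers counted by RNA-seq. All 5 were among the 17222 genes that passed the filter on low counts. The muscle was the tibialis anterior (TA) of adult male C57BL/6 mice of the genotype HSA-MCM-Bmal1-/-. In these iMSBmal1-/- mice, tamoxifen activates a Cre recombinase driven by the human skeletal actin promoter, so that Bmal1 (Arntl in the annotation) is removed in muscle fibres while other cells of the muscle keep it. All animals were kept in 12 h light and 12 h dark. At 12 to 16 weeks of age they were given tamoxifen on 5 days at 2 mg per day. They had adeno-associated virus (AAV) injected into the TA 4 weeks later and were sampled after 4 more weeks. One group received AAV-GFP (n = 3) and the other AAV-RBM20 (n = 3), which carried mouse Rbm20 cDNA with an HA tag behind the CMV promoter. RBM20 is a splicing factor best known for its action on titin. More vector genomes were injected of AAV-RBM20 than of AAV-GFP, so the effects of transgene and vector dose cannot be told apart. The labels do not state that each sample is a separate animal, so p-values measure the spread between these samples only. Sample lists of the study's protein blots include mice with a different vector in each leg, and whether libraries of the 2 groups share animals was not given in the sources used here. The hour of collection was not given in the sources used here.

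The clock of a mammalian cell is a transcriptional feedback loop. BMAL1, the product of Arntl, pairs with CLOCK through their PAS domains, and the dimer binds E-boxes and activates Per, Cry, Nr1d and many output genes. BMAL2, from Arntl2, and NPAS2 are paralogues of BMAL1 and CLOCK, respectively. The study describes BMAL1 as the only part of the core clock without redundancy. PER and CRY proteins repress the dimer, and a second loop acts on Arntl itself, where the ROR receptors activate and the REV-ERB receptors, from Nr1d1 and Nr1d2, repress through shared ROR elements (ROREs). In skeletal muscle this clock is known for its control of metabolism and of muscle-specific genes.

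Promoter letters of the 5 genes were read for E-boxes and ROREs. RefSeq promoter windows of GRCm38.p6, from 250 bases before to 50 bases after a start, were matched by symbol for all 5 genes and gave 8 windows. Both strands were searched for the RORE core TAGGTCA, its short form AGGTCA, which lies within the core, the E-box CACGTG and its variant CACGTT. The core was found in Arntl alone among the 5 genes, the short form in Arntl and Clock, and neither E-box in any of the 8 windows. Of all 32851 windows, 2.61% held the core, 16.3% the short form, 7.15% CACGTG and 4.68% CACGTT. A further match in Arntl, TAGGTTA on the same strand, was searched after the window had been read and occurs in 1.44% of windows. The segments below are shown because they are the RORE-like letters of the 5 genes and, for contrast, CACGTG in the windows of Per1, Cry1 and Ciart, which encode repressors of the dimer. Capitals mark the match, and each segment is written 5′ to 3′ on the strand of its gene.
Arntl, core, chr7:113207529-113207558, plus strand: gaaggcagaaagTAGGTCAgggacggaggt
Arntl, variant, chr7:113207493-113207522, plus strand: ttggtcggaaagTAGGTTAgtggtgcgaca
Clock, short form on the opposite strand, chr5:76303604-76303633, minus strand: agctttggcctcTGACCTgacagatgacag
Per1, E-box, chr11:69098771-69098800, plus strand: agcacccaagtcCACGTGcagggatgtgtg
Cry1, E-box, chr10:85185097-85185126, minus strand: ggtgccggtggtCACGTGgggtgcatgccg
Ciart, E-box, chr3:95882327-95882356, minus strand: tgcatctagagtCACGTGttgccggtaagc
The core in Arntl began 31 bases after the more downstream of its starts. CACGTG was present in 4 of the 6 E-box repressor genes with a window. Among other listed genes with a window it was in 2 of 16 clock kinases, ligases and cofactors. It was also in 1 of 4 D-box factors and 1 of 9 other bHLH-PAS genes. Neither Nr1d1 nor Nr1d2 held it (0 of 2), nor did any of 6 muscle clock outputs. The share of 7.15% is of windows, and a share of all genes was not counted. These matches describe letters only.

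The libraries held 41400132 to 54226618 counts. Both libraries numbered 3 stood apart from the others of their group. Titin took 4.48% of counts in AAV-GFP replicate 3 and 9.05% in AAV-RBM20 replicate 3, against 16.9 to 17.8% in the other 4 libraries, and mitochondrial genes took 12.5% and 11.4% against 6.41 to 7.66%. Results that rest on these libraries are therefore given with and without them. The 8 muscle fibre markers summed to 115772 to 126657 CPM (counts scaled to a common size by TMM library sizes) in AAV-GFP libraries and 75796 to 118709 in those of AAV-RBM20, so the tissue matched its label. The summed marker levels overlapped between the groups for fibres and for each other cell type examined (endothelial, fibroblast, macrophage, satellite, pericyte, Schwann, adipocyte and erythroid). Between same-numbered libraries, however, the macrophage and fibroblast sums were higher with AAV-RBM20 in 3 of 3 pairs. The satellite cell and adipocyte sums were lower in 3 of 3. Cdh15 was the largest part of the satellite sum (mean 21.6 CPM in AAV-GFP), and 4 of the 5 satellite markers had positive log2 fold changes. Fabp4 made up most of the adipocyte sum (mean 63.7 CPM in AAV-GFP), and the 4 adipocyte markers tested had negative ones. The macrophage sums were 30.3, 28.8 and 93.2 CPM with AAV-GFP, against 67.5, 59.9 and 125 CPM with AAV-RBM20. The part of these markers in the results on the 5 genes was not tested. The transgene's gene, Rbm20, was at 170, 165 and 164 CPM in AAV-GFP and at 499, 545 and 406 CPM in AAV-RBM20. No library of mice with intact Bmal1 was analysed here, and a gene-level count does not show which exons were read, so loss of Bmal1 was not checked.

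Without a replicate block no gene passed the threshold between the vectors, 0 of 17222 (0%) at a Benjamini-Hochberg adjusted p under 0.05 in edgeR's quasi-likelihood test, and hence none of the 5. At an unadjusted p under 0.05, 1 of the 5 was lower in AAV-RBM20 (background 3.82%, 658 genes) and 0 were higher (background 4.08%, 702 genes). DESeq2 without a block called 75 genes and limma-voom 0, none of the 5 among them. Blocking on the replicate number let 25 genes (0.145%) pass in edgeR, none of the 5 among them, and 520 in DESeq2. Rbm20, at an adjusted p of 0.121 in edgeR without the block, passed with it (adjusted p = 0.0107). The groups did not overlap for 2 of the 5, Arntl and Clock, both lower in AAV-RBM20 (background 9.04%), and for 0 of the 5 in the other direction (background 7.71%). The median log2 fold change was -0.27 over the 5 genes and 0.01 over all genes tested. In bulk muscle, fewer cells of a type and less RNA per cell cannot be told apart.

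**Figure D1:**
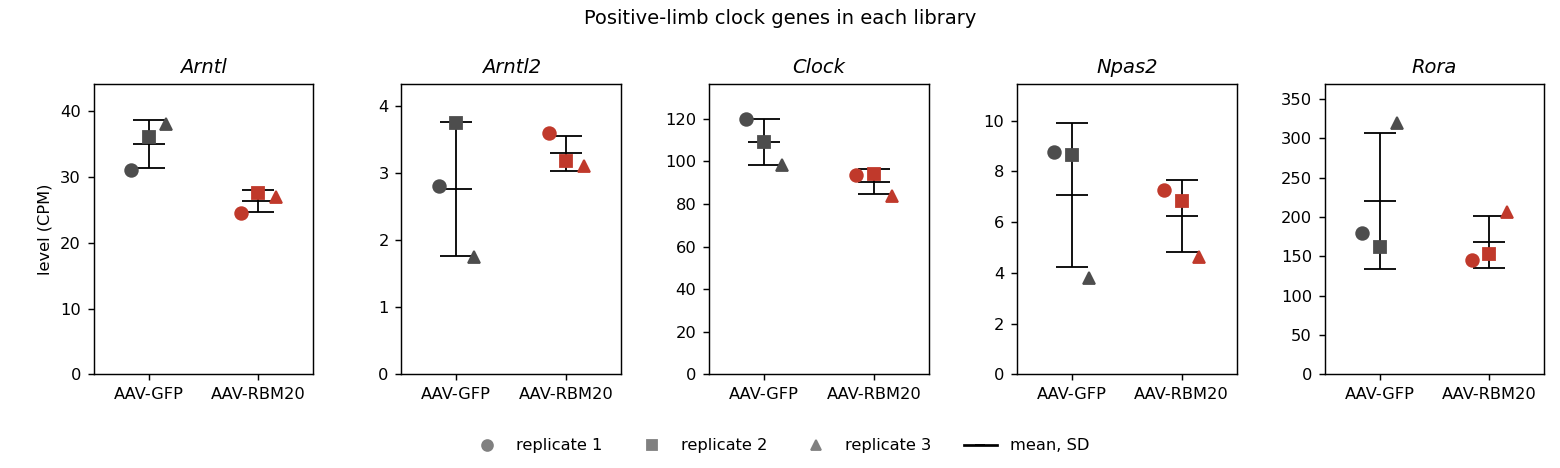
Level of each positive-limb gene (CPM, linear axis from 0) in the 3 AAV-GFP and 3 AAV-RBM20 libraries, with the mean and SD of each group. The groups are apart for Arntl and Clock, and replicate 3 of AAV-GFP is the extreme library for Arntl2, Npas2 and Rora.

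Arntl (ENSMUSG00000055116, GRCm38 chr7:113207465-113314126, plus strand, 22 merged exons) encodes BMAL1, the partner without which the loop does not run, and is the gene floxed in these mice. It was at 31.0, 36.0 and 38.1 CPM in AAV-GFP replicates 1 to 3 and at 24.5, 27.6 and 26.9 CPM in AAV-RBM20 replicates 1 to 3. Every AAV-RBM20 library lay below every AAV-GFP library. The means were 35.01 ± 3.63 and 26.3 ± 1.63 CPM (SD, n = 3 each), a ratio of 0.752. The log2 fold change was -0.41 ± 0.13 (SE), with a 95% interval from -0.71 to -0.12 before any adjustment. In edgeR's quasi-likelihood test it did not pass the threshold (Benjamini-Hochberg adjusted p = 0.618). It ranked 310 among the genes tested. The two-sided exact permutation test gave p = 0.1, the smallest that 3 against 3 samples allow. Among same-numbered libraries the log2 ratio was -0.34, -0.38 and -0.50, so the direction was the same in 3 of 3 pairs. Because the groups were apart, that count and the permutation p were fixed and add nothing to it. The reads come from cells that keep the gene and from fibres together, and the shares of either were not measured. An antisense gene, Gm45355, overlaps 33 exonic bases of Arntl, and the strand setting of the counting was not given in the sources used here, so the count is uncertain to that extent.

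Arntl2 (ENSMUSG00000040187, chr6:146796055-146833529, plus strand, 17 merged exons) encodes BMAL2. It was at 2.80, 3.74 and 1.75 CPM in AAV-GFP and at 3.59, 3.18 and 3.11 CPM in AAV-RBM20, from 92 to 196 counts per library. The AAV-RBM20 libraries lay within the range of AAV-GFP, and the lowest value was that of AAV-GFP replicate 3. The log2 fold change was 0.26 ± 0.29 (edgeR's quasi-likelihood test, Benjamini-Hochberg adjusted p = 0.797), positive in 2 of 3 pairs, with a 95% interval from -0.40 to 0.92. It was 0.06 without both libraries numbered 3. No gene of the annotation overlaps Arntl2.

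Clock (ENSMUSG00000029238, chr5:76209868-76304792, minus strand, 24 merged exons) encodes the partner of BMAL1, which also has acetyltransferase activity. It was at 119.6, 109.3 and 98.2 CPM in AAV-GFP and at 93.6, 94.1 and 83.7 CPM in AAV-RBM20. No AAV-RBM20 library reached the lowest of AAV-GFP, and within each group replicate 3 was the lowest. The means were 109.0 ± 10.7 and 90.4 ± 5.88 CPM (SD, n = 3 each). The log2 fold change was -0.27 ± 0.13 and did not pass the threshold (edgeR's quasi-likelihood test, Benjamini-Hochberg adjusted p = 0.641). As for Arntl, groups that are apart fix the same direction in 3 of 3 pairs and the exact permutation p of 0.1. Without both libraries numbered 3 Clock passed as lower in AAV-RBM20, at -0.28 ± 0.07 (edgeR's quasi-likelihood test, adjusted p = 0.0429). It was the 1 of the 5 that did, against a background of 2.05% of 17250 genes lower and 1.95% higher. Clock did not pass without both libraries numbered 1 (-0.23, edgeR adjusted p = 0.999) or both numbered 2 (-0.32, edgeR adjusted p = 0.884). In the comparison without both libraries numbered 3 (2 against 2), 5 of 6 macrophage markers and 4 of 6 fibroblast markers passed as higher. Passing as lower were 1 of 8 muscle fibre markers, Tnnt3, and 1 of 5 satellite cell markers, Cdh15. The satellite markers Pax7, Myf5, Vcam1 and Chodl had positive values there (0.40, 0.24, 0.13 and 0.14) and did not pass. The part of these markers in the Clock value was not tested. With all libraries the summed macrophage markers spanned 28.8 to 93.2 CPM in AAV-GFP and 59.9 to 125 CPM in AAV-RBM20, and the fibroblast markers 491 to 1035 and 844 to 1087 CPM, with none of either list at 0 in all libraries.

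Npas2 (ENSMUSG00000026077, chr1:39193731-39363236, plus strand, 23 merged exons) encodes the paralogue of CLOCK. It was at 8.76, 8.65 and 3.80 CPM in AAV-GFP and at 7.26, 6.84 and 4.63 CPM in AAV-RBM20. Replicate 3 was the lowest library of each group, and the groups overlapped. The log2 fold change of -0.18 ± 0.33 (edgeR's quasi-likelihood test, Benjamini-Hochberg adjusted p = 0.887) was smaller than its error, and its sign turned when AAV-GFP replicate 1 (0.0055) or AAV-RBM20 replicate 3 (0.0080) was left out. Without both libraries numbered 3 it was -0.30 (adjusted p = 0.214).

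Rora (ENSMUSG00000032238, chr9:68653786-69388246, plus strand, 18 merged exons) encodes RORα, the nuclear receptor that activates Arntl through the RORE. It was at 180, 162 and 320 CPM in AAV-GFP and at 145, 154 and 207 CPM in AAV-RBM20. Replicate 3 was the highest library of each group, opposite to Clock and Npas2. The log2 fold change was -0.39 ± 0.27 (edgeR's quasi-likelihood test, Benjamini-Hochberg adjusted p = 0.695), with the AAV-RBM20 library lower in 3 of 3 pairs. Its interval ran from -1.02 to 0.24. It was -0.19 (adjusted p = 0.172) without both libraries numbered 3, and -0.02 without AAV-GFP replicate 3 alone. The antisense gene Gm15511 overlaps 82 exonic bases of Rora.

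**Figure D2:**
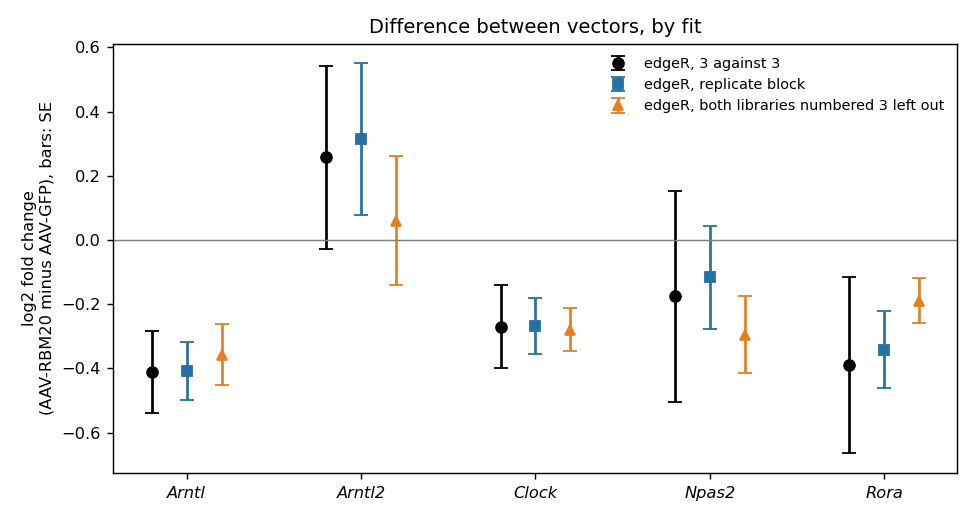
Log2 fold change (AAV-RBM20 minus AAV-GFP, bars SE) of the 5 genes in edgeR with all 6 libraries, with the replicate number as a block, and without both libraries numbered 3. Arntl and Clock keep nearly the same value in the 3 fits, while Arntl2, Npas2 and Rora move with the libraries numbered 3.

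The spread within groups was lower without replicate 3 for Clock, Npas2 and Rora in both groups, and for Arntl2 in AAV-GFP only. For Arntl it was not lower in either group. In AAV-GFP the coefficient of variation was 10.4% for Arntl and 9.84% for Clock, against 36.0% for Arntl2, 40.1% for Npas2 and 39.2% for Rora. In AAV-RBM20 it was 6.19%, 6.504%, 7.90%, 22.6% and 19.8% for Arntl, Clock, Arntl2, Npas2 and Rora. Over replicates 1 and 2 alone the AAV-GFP values were 10.5%, 6.41%, 20.2%, 0.878% and 7.3% in that order, and those of AAV-RBM20 were 8.42%, 0.373%, 8.52%, 4.19% and 4.07%.

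Per kilobase of merged exon, the order of levels was Rora, Clock, Arntl, Npas2 and Arntl2 in each of the 6 libraries. In AAV-GFP the means were 16.9 ± 6.62, 7.94 ± 0.78, 4.65 ± 0.48, 1.48 ± 0.59 and 0.486 ± 0.175 CPM per kb (SD, n = 3). In AAV-RBM20 they were 12.9 ± 2.55, 6.59 ± 0.43, 3.50 ± 0.22, 1.30 ± 0.29 and 0.579 ± 0.046 CPM per kb. Neighbours in this order did not overlap within either vector group. The gap was narrowest between Npas2 and Arntl2, where the lowest Npas2 library of AAV-GFP, replicate 3, was at 0.793 and the highest Arntl2 library, replicate 2, at 0.657 CPM per kb. Arntl2 was thus below Arntl, and Npas2 below Clock, in each library.

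**Figure D3:**
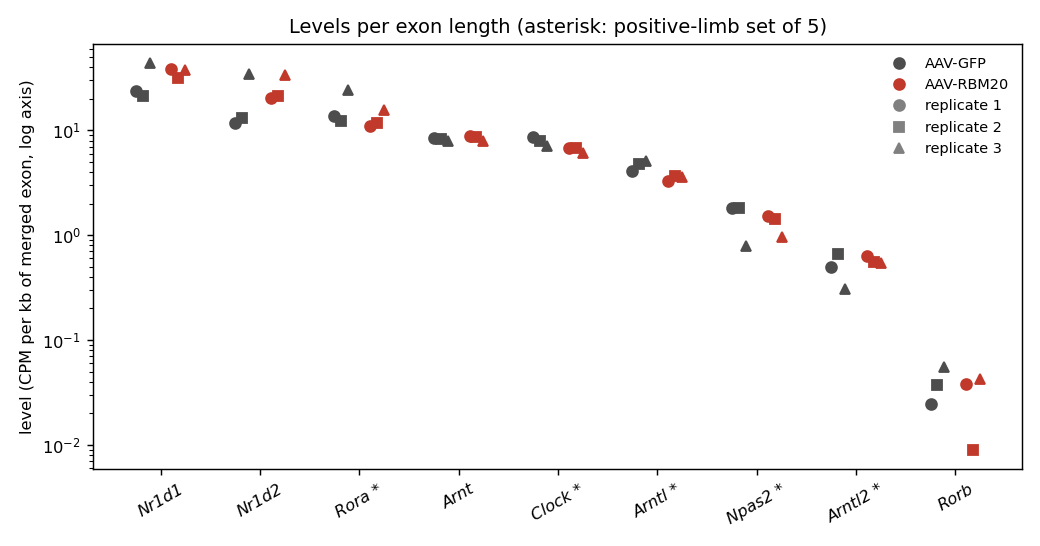
Levels per exon length (CPM per kb, log axis) of the 5 positive-limb genes (asterisks) and of 4 related genes, with each library as a point. Rora leads the 5 genes and Arntl2 is the lowest, while Rorb lies near the bottom of the scale.

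Paralogues were compared as a ratio of counts within a library, which needs no scaling between libraries. Arntl is the floxed gene, and its count does not separate intact from recombined message, so the ratio gives no balance of working BMAL2 to BMAL1. The log2 ratio of Arntl2 to Arntl was -3.46, -3.26 and -4.44 with AAV-GFP and -2.77, -3.11 and -3.11 in AAV-RBM20. Each AAV-RBM20 library was above each AAV-GFP library, by 0.73 between the means, with the smallest possible p of 0.1 in the two-sided exact permutation test. That p is fixed once the groups are apart. The difference was 0.42 without both libraries numbered 3, where the exact permutation test cannot go below p = 0.333. There the edgeR log2 fold change was -0.36 for Arntl and 0.06 for Arntl2. The log2 ratio of Npas2 to Clock was -3.77, -3.66 and -4.69 with AAV-GFP and -3.69, -3.78 and -4.17 in AAV-RBM20. These groups overlapped, with a difference of 0.16 (exact permutation p = 0.9) that turned to -0.020 without both libraries numbered 3.

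At the RORE the opposing receptors were compared in the same way. The log2 ratio of Nr1d1 (REV-ERBα, repressor) to Rora (activator) was -1.29, -1.29 and -1.25 with AAV-GFP and -0.28, -0.66 and -0.84 in AAV-RBM20. These counts were not scaled by exon length, so the sign does not show which gene had the higher level. Per kilobase of merged exon the mean log2 ratio was 0.81 with AAV-GFP and 1.49 with AAV-RBM20, so Nr1d1 was above Rora. The AAV-GFP libraries, replicate 3 included, had an SD of 0.024, and the AAV-RBM20 libraries were all higher. The means differed by 0.69 (exact permutation p = 0.1, the smallest possible), with the same direction in 3 of 3 pairs. Both are fixed once the groups are apart. The difference was 0.83 without both libraries numbered 3. Benjamini-Hochberg adjustment over the 3 ratios gave exact permutation values of 0.15, 0.9 and 0.15 for Arntl2 to Arntl, Npas2 to Clock and Nr1d1 to Rora.

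**Figure D4:**
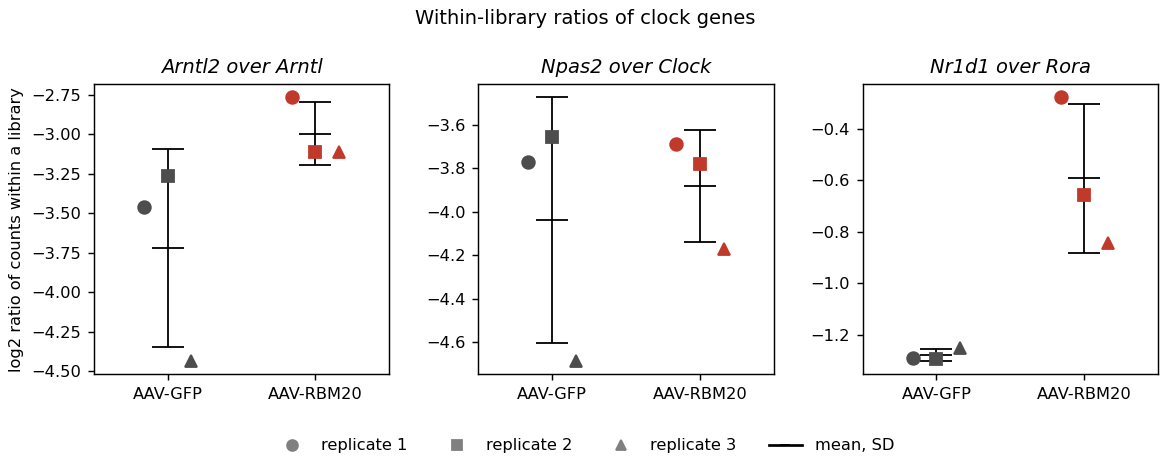
Log2 ratio of counts within each library for Arntl2 over Arntl, Npas2 over Clock and Nr1d1 over Rora, with the mean and SD of each vector group. For Arntl2 over Arntl and Nr1d1 over Rora all AAV-RBM20 points lie above all AAV-GFP points, and for Npas2 over Clock the groups overlap.

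The other genes of the loop were counted by role. Rorb, which encodes the RORβ receptor, was near the floor, at 0.10 to 0.61 CPM, and did not pass the threshold. Both RORE repressors had overlapping groups. Nr1d1 was at 73.6, 66.1 and 134.6 CPM in AAV-GFP and 119.6, 97.5 and 115.0 CPM in AAV-RBM20, and Nr1d2 (REV-ERBβ) at 64.1, 70.8 and 188.2 and at 109.9, 115.7 and 181.6 CPM. In AAV-GFP replicate 3 both were higher than in any AAV-RBM20 library. Their log2 fold changes were 0.28 ± 0.26 and 0.33 ± 0.42 (edgeR, adjusted p = 0.763 and 0.823). Without both libraries numbered 3 they passed as higher, at 0.64 and 0.75 (adjusted p = 0.0213 and 0.000393).

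Of the 8 E-box repressors, 0 passed in either direction without the block, 5 had positive and 3 negative log2 fold changes, and the median was 0.34. Per3, a period protein gene, was at 18.5, 16.6 and 21.2 CPM in AAV-GFP and 41.2, 30.7 and 36.7 CPM in AAV-RBM20. Its groups were apart, with a log2 fold change of 0.95 ± 0.16 (edgeR's quasi-likelihood test, adjusted p = 0.405). With the replicate number as a block, Per3 and Nfil3 passed in edgeR (adjusted p = 0.0271 each), and Per3 also passed without both libraries numbered 3 (adjusted p = 0.0192). Nfil3, a repressor at D-boxes, was at 27.7, 36.7 and 21.6 CPM in AAV-GFP and 13.7, 21.7 and 11.8 CPM in AAV-RBM20, lower with AAV-RBM20 in 3 of 3 pairs although the groups overlapped. Its log2 fold change was -0.87 ± 0.27 (adjusted p = 0.618), and of the 4 D-box factors 0 passed with all libraries and no block. Dbp, Tef and Hlf were named after their values were seen. Without both libraries numbered 3, Dbp and Tef passed as higher. Hlf was lower there, at -0.50, and did not pass (edgeR, adjusted p = 0.0792).

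**Figure D5:**
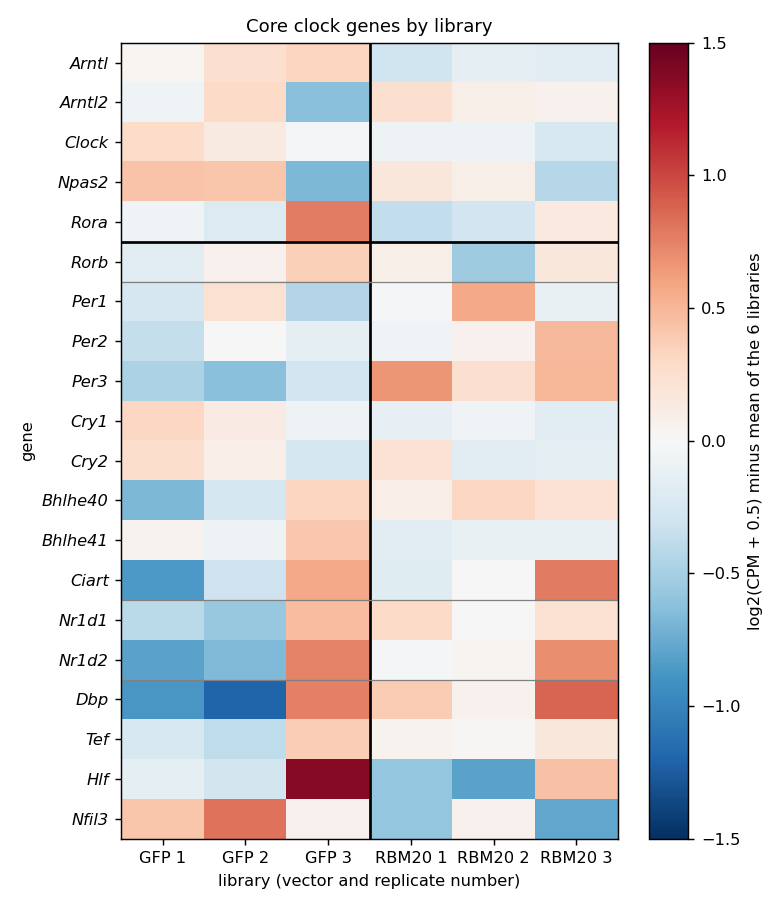
Log2(CPM + 0.5) of core clock genes minus the mean of the 6 libraries, with the 5 positive-limb genes on top, then Rorb, E-box repressors, RORE repressors and D-box factors. Arntl and Clock are lower, and Per3 higher, in all AAV-RBM20 columns, while in AAV-GFP replicate 3 Nr1d1 and Nr1d2 are above all AAV-RBM20 libraries.

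Of 21 tested clock kinases, ligases and cofactors (22 listed), 0 passed, and the median log2 fold change was -0.01. Hdac3, a deacetylase that works with the REV-ERB receptors, was at 51.7, 48.7 and 49.99 CPM in AAV-GFP and 41.2, 41.1 and 34.5 CPM in AAV-RBM20 (log2 fold change -0.36 ± 0.12, edgeR adjusted p = 0.618). Its groups did not overlap, and it passed as lower at -0.28 without both libraries numbered 3 (edgeR, adjusted p = 0.0455). Of 12 muscle outputs of the clock 0 passed without the block, with 4 positive and 8 negative values, and Rbm20, the gene of the transgene, was 1 of the positive ones. Without both libraries numbered 3, Rbm20 and Tcap, a titin-binding protein gene named after its values were seen, passed as higher at 1.65 and 0.44 (edgeR, adjusted p = 2.28e-06 and 0.0100). Myod1, a muscle determination factor and a known clock target in muscle, was at 39.4, 39.1 and 40.5 CPM in AAV-GFP and 31.3, 32.9 and 31.0 CPM in AAV-RBM20. The groups did not overlap, and the log2 fold change was -0.32 ± 0.11 (edgeR, adjusted p = 0.618). Of the other bHLH-PAS genes, the wider family of Arntl and Clock, 8 of 12 were tested and 0 passed. Arnt, the general partner of that family, had a log2 fold change of 0.05 ± 0.12, and Epas1, the hypoxia factor, 0.06 ± 0.30.

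The genes whose log2 CPM followed each of the 5 most closely over the 6 libraries were taken from those whose log2 CPM averaged 3 or more. Ciao2b led for Arntl (Pearson r = 0.974), Elovl5 for Arntl2 (0.994), Gfod2 for Clock (0.994), Pi4ka for Npas2 (0.996) and Fxr1 for Rora (0.999). Among the next were Osbpl6, Ell2, Prr13 and Rbsn for Arntl, Swap70, Bcr, Acot11 and Trim56 for Arntl2, Chfr, Ppp2r5e, Mdp1 and Rbl2 for Clock, Cherp, Aqp1, Abcc4 and Pom121 for Npas2, and Syf2, Gstm5 and Zfyve9 for Rora. Over 0.95 lay 33 genes for Arntl, 70 for Arntl2, 48 for Clock, 315 for Npas2 and 897 for Rora. These are descriptions over 6 points that share the vector groups and the 2 libraries numbered 3.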

How the data were processed

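The authors used HISAT2 with mm10 to map paired reads of rRNA-depleted, stranded libraries and HTSeq to count reads per gene (versions, strand setting and annotation release not given in the sources used here). The deposited counts are raw. A deposited normalised signal is the count divided by 1 size factor per library and was not tested. Symbols and positions came from GENCODE M21 (GRCm38, 55141 of 55401 identifiers). Counts were tested with edgeR 4.0.16 in R 4.3.3 (filterByExpr, TMM, glmQLFit with robust estimation, glmQLFTest, no covariate), Benjamini-Hochberg adjusted over the 17222 genes tested. DESeq2 1.42.0 and limma 3.58.1 were alternatives. Fits were checked on simulated counts. Ratios used counts + 0.5 and a two-sided exact permutation test, which cannot go below 0.1, with adjustment over the 3 ratios.

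Replicates differed by far more than sampling noise (chi-square per degree of freedom 15.1 to 545). Replicate numbers come from the titles, while the descriptions number the AAV-RBM20 samples on from AAV-GFP. Deviations from group means correlated across genes at 0.418, 0.201 and 0.484 in same-numbered libraries, so the numbers were taken as pairs, although AAV-GFP replicate 2 with AAV-RBM20 replicate 1 also reached 0.216.

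The 5 genes, the pathway and marker lists and the tests were chosen with earlier results of these data known. The 5 genes are named whatever they showed. From each list up to 4 genes with an unadjusted p under 0.05 are named, or else the 2 with the highest mean CPM. Some genes that this rule or the likeness measure names are not reported here.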

Additional observations from a re-analysis of the deposited data

How the results depend on the processing

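Over 19 alternative settings the log2 fold change ranged from -0.50 to -0.35 for Arntl (adjusted p 0.0506 to 0.999), 0.01 to 0.54 for Arntl2, -0.34 to -0.20 for Clock (adjusted p 0.0429 to 0.999), -0.48 to 0.0080 for Npas2 and -0.57 to -0.02 for Rora. Only Clock passed the threshold in any of them, at -0.28 without both libraries numbered 3, and only Npas2 turned in sign. The lowest adjusted p of Arntl came from DESeq2 with the replicate block. The count of genes past the threshold, 0 in the planned test, was 8 with no filter on low counts, 75 with DESeq2, 25 with the replicate block, 520 with DESeq2 and the replicate block, and 690 without both libraries numbered 3. The cause was not tested. The count was 0 whichever single library was left out, and also without both libraries numbered 1 or both numbered 2. The replicate block changed no call of the 5 genes. Leaving out single libraries gave -0.48 to 0.0080 for Npas2 and -0.17 to 0.35 for the Npas2 to Clock difference, which was -0.020 without both libraries numbered 3. The other 2 ratio differences kept their direction, at 0.37 to 0.95 for Arntl2 to Arntl and 0.53 to 0.81 for Nr1d1 to Rora. No scaling moved the median of all genes by over 0.1. Precision was limited by 3 samples a group. Motif shares depend on the letters searched.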
